A study of Mus musculus with 6 samples.

Results

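The NR4A orphan nuclear receptors are encoded by Nr4a1 (also called Nur77), Nr4a2 (Nurr1) and Nr4a3 (Nor1). These 3 genes were taken by symbol from the 54385 rows of a table of estimated counts in brown adipose tissue, and all 3 have a row. They were selected on these same counts, with each gene's direction between genotypes and share of the family already known, so each comparison of a member between genotypes is a description and carries no test. The samples were ADCY3∆AT (3 libraries, mice lacking Adcy3-AT, in the title a truncated, cold-induced variant of adenylyl cyclase 3) and wild type (WT, 3 libraries). All mice were C57BL/6N, 20 weeks old and fed chow, and polyadenylated RNA was sequenced from their brown fat. The sample labels call this tissue interscapular, whereas the design text calls it inguinal. How the allele was made, in which cells it acts, the housing temperature and the hour of collection are not given in the sources used here.

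NR4A proteins are transcription factors of the nuclear receptor superfamily for which no physiological ligand is firmly established, so their activity is thought to follow mainly their abundance and modification. All members are immediate early genes, transcribed within a short time of a stimulus without new protein synthesis. In adipocytes, beta-adrenergic signals raise cyclic AMP, which activates protein kinase A and the factor CREB, and cold or catecholamines are known to induce NR4A transcripts in brown fat by this route. The proteins share a closely related DNA-binding domain and can bind the same response element, named NBRE, as monomers, and NR4A1 and NR4A2 can also pair with retinoid X receptors.

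Because CREB binds the sequence TGACGTCA (the cyclic AMP response element, CRE) and also its core TGACG alone, the bases ahead of the annotated starts are shown with each core in capitals, on either strand (TGACG or CGTCA). The sequences are those of RefSeq on GRCm38.p6, read along the strand of the gene. The windows are chr15:101266596-101266845 (plus strand) for Nr4a1, chr2:57124004-57124253 (minus strand) for Nr4a2 and chr4:48045055-48045152 (plus strand) for Nr4a3. For Nr4a3 the print stops after 98 bases, where the first GENCODE M21 transcript begins ahead of the RefSeq start.
Nr4a1: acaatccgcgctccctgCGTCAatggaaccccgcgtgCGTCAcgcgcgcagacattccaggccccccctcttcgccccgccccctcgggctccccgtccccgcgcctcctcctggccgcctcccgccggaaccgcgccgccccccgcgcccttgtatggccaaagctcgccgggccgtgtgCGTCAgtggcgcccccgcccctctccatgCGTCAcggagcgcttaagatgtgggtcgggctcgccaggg
Nr4a2: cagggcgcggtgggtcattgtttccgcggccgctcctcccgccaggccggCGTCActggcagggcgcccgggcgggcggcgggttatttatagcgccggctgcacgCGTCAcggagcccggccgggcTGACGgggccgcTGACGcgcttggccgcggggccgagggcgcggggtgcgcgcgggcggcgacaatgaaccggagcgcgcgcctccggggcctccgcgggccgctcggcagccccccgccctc
Nr4a3: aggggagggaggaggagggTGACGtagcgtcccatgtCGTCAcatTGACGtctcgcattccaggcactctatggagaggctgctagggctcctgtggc
Each gene held 4 cores in the 250 bases ahead of its RefSeq start, the fourth of Nr4a3 lying past the printed bases. Of 32851 RefSeq windows of that length, 17.8% held at least 1 core and 0.137% held at least 4. None of the 3 windows held a whole CRE (TGACGTCA, in 1.55% of windows), an AP-1 site (TGANTCA, 6.75%), an NBRE (AAAGGTCA, 1.34%), a heat shock element (GAANNTTC, 6.69%) or a CArG box (1.47%), searched on both strands. The letters of the TATA box (TATAAA, 12.4%) were found for Nr4a2 alone, on the strand opposite to the gene, at position -164 from the RefSeq start. The GC box GGGCGG (32.7%) occurred 3, 4 and 1 times ahead of Nr4a1, Nr4a2 and Nr4a3. A match is a run of letters and not a measured binding site. All 3 genes have further annotated starts outside these windows, whose upstream bases were not searched. Those of protein-coding transcripts lie at 101254269 on chromosome 15 (Nr4a1), at 57115038 and 57113072 on chromosome 2 (Nr4a2) and at 48049114 on chromosome 4 (Nr4a3).

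The genes lie on separate chromosomes of GRCm38. Nr4a1 (ENSMUSG00000023034) spans 101254269 to 101274795 on chromosome 15, Nr4a2 (ENSMUSG00000026826) 57106830 to 57124003 on chromosome 2 and Nr4a3 (ENSMUSG00000028341) 48045153 to 48086447 on chromosome 4. In GENCODE M21 no other gene overlaps any of the 3 on either strand. The table has 1 row per gene, so alternative transcripts of a member were not separated.

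Library totals ran from 14799779 to 19592156 estimated counts in ADCY3∆AT and from 13758492 to 17489589 in WT. Across 14332 genes that passed the filter on low counts, edgeR called 377 higher and 239 lower in ADCY3∆AT at an adjusted p under 0.05, which is 4.30% of genes in either direction. An unadjusted p under 0.05 was seen for 22.6% of genes, and DESeq2 and limma-voom called 6.93% and 3.66%. With upper-quartile scaling the split was 282 higher and 274 lower. The row of Adcy3 held 167 to 239.8 CPM (counts per 1000000, with libraries scaled by the trimmed mean of M-values) in ADCY3∆AT and 166 to 248 CPM in WT. A further row without a symbol, whose identifier ends in the digits of Adcy3, held 0 to 1.27 CPM in ADCY3∆AT and 118 to 214.6 CPM in WT. Ucp1, the defining uncoupling protein of brown adipocytes, averaged 4239 CPM in ADCY3∆AT and 4786 CPM in WT. Of 10 brown adipocyte markers edgeR called 0, with 1 at an unadjusted p under 0.05, 1 called by DESeq2 and 0 by limma-voom.

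In ADCY3∆AT brown fat, Nr4a1 and Nr4a2 were lower than in WT, and Nr4a3, the scarcest in WT, was higher. Each of the 3 genes separated the genotypes with no overlap of libraries, as did 29.0% of all genes tested, and each was past the edgeR threshold, as were 4.30% of all (2.63% higher and 1.67% lower). Since the choice of genes rested on this contrast, nothing is read from these counts. In whole tissue, fewer cells of a type and less RNA per cell cannot be told apart.

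Nr4a1, which in other tissues links hormone and growth signals to metabolic genes, held 30.9, 16.3 and 18.2 CPM in ADCY3∆AT replicates 1 to 3, against 114, 213 and 138 CPM in WT replicates 1 to 3. The highest knockout library was therefore 3.69-fold below the lowest WT library. Means were 21.8 ± 7.91 CPM in ADCY3∆AT and 155 ± 51.7 CPM in WT (SD, n = 3 each), a log2 fold change of -2.83 (standard error, SE, 0.30), or 7.09-fold lower. It ranked 23 by size among all falls.

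Nr4a2, best known for its need in midbrain dopamine neurons and also induced by cyclic AMP, held 12.8, 13.7 and 14.2 CPM in the ADCY3∆AT libraries, against 35.5, 43.6 and 24.6 CPM in the WT libraries. Its knockout libraries lay close together: their 95% exact Poisson intervals (11.2 to 14.6, 11.9 to 15.7 and 12.5 to 15.9 CPM) overlapped, whereas those of WT replicates 2 and 3 (40.1 to 47.2 and 22.3 to 27.0 CPM) did not. Such intervals cover counting error only. Means were 13.6 ± 0.682 CPM in ADCY3∆AT and 34.6 ± 9.52 CPM in WT (SD, n = 3 each), a log2 fold change of -1.35 (SE 0.19), or 2.54-fold lower. The coefficient of variation was 5.03% in ADCY3∆AT and 27.5% in WT.

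Nr4a3, the third receptor, held 14.1, 7.97 and 8.05 CPM in the ADCY3∆AT libraries, against 0.718, 1.48 and 1.07 CPM in the WT libraries. The WT values rest on 11, 20 and 19 estimated counts, and their 95% Poisson intervals ran from 0.358 to 2.28 CPM over the 3 libraries. The lowest knockout library, with 120 counts, was still 5.39-fold above the highest WT library. Means were 10.04 ± 3.51 CPM in ADCY3∆AT and 1.09 ± 0.380 CPM in WT (SD, n = 3 each), a log2 fold change of 3.21 (SE 0.33), or 9.26-fold higher. It ranked 7 by size among all rises.

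**Figure D1:**
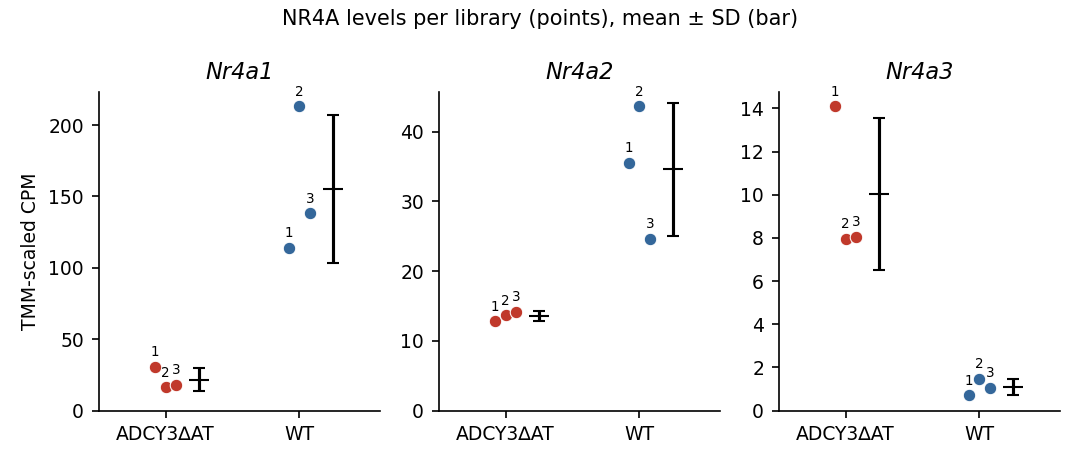
TMM-scaled CPM of Nr4a1, Nr4a2 and Nr4a3 on linear axes from 0, with 1 numbered point per library (3 ADCY3∆AT in red, 3 WT in blue) and the mean ± SD beside the points. Nr4a1 and Nr4a2 lie lower in ADCY3∆AT, Nr4a3 lies higher (10.04 CPM in ADCY3∆AT and 1.09 CPM in WT on average), and no gene's libraries overlap between genotypes.

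Skeletal muscle RNA differed between the genotypes and among the WT libraries, so its values are given beside those of the receptors. The summed level of 17 muscle markers was 47.1 to 49.1 CPM in ADCY3∆AT, against 70.1, 174 and 824 CPM in WT replicates 1, 2 and 3. Of 13 tested, 8 were called lower by edgeR, against 1.67% of all genes, 12 were called by DESeq2 and 0 by limma-voom. Without 1 library the edgeR count was 0 for each ADCY3∆AT library, and 11, 1 and 6 for WT replicates 1, 2 and 3. The contractile gene Tnnt3 was at 0 in ADCY3∆AT replicates 1 and 3 and at 0.0664 CPM in replicate 2, against 1.18, 9.53 and 52.6 CPM in WT. Nr4a1, Nr4a2 and Nr4a3 were all highest in WT replicate 2 among the WT libraries, not in WT replicate 3, which held most muscle RNA. Without WT replicate 3 their log2 fold changes were -2.90, -1.54 and 3.21 (-2.83, -1.35 and 3.21 with it). In that fit 12 of 13 tested muscle markers still differed by 2-fold or more, so it does not remove the muscle difference. Of 36 tested markers of macrophages, lymphocytes, endothelium, fibroblasts, mural, Schwann and erythroid cells, edgeR called 0 (4.30% of all genes), with 7 at an unadjusted p under 0.05 (22.6% of all), 1 called by DESeq2 and 0 by limma-voom. Schwann cell markers summed to 147, 118 and 87.7 CPM in ADCY3∆AT and 90.0, 82.3 and 85.7 CPM in WT, highest in ADCY3∆AT replicate 1 as Nr4a1 and Nr4a3 were. Erythroid markers summed to 728, 1379 and 1134 CPM in ADCY3∆AT and 1335, 805 and 1720.5 CPM in WT, lowest in each genotype's library with the most Nr4a1. The part of these cell types in the receptors' levels was not tested.

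To compare the receptors with each other, levels were divided by the length of the exon union (3509, 4059 and 5987 bases for Nr4a1, Nr4a2 and Nr4a3). On this scale the order Nr4a1, Nr4a2, Nr4a3 held in every one of the 6 libraries. Nr4a1 averaged 6.22 ± 2.25 CPM per kilobase in ADCY3∆AT and 44.2 ± 14.7 in WT. Nr4a2 averaged 3.34 ± 0.168 in ADCY3∆AT and 8.52 ± 2.35 in WT, and Nr4a3 averaged 1.68 ± 0.586 in ADCY3∆AT and 0.182 ± 0.0635 in WT (SD, n = 3 each). Within each genotype the ranges of the 3 genes did not overlap.

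The family as a whole was lower and more evenly divided in ADCY3∆AT. Summed per kilobase, it reached 14.3, 9.36 and 10.03 CPM per kilobase in ADCY3∆AT, against 41.4, 71.8 and 45.6 in WT, 4.71-fold lower on average. The fall in the mean sum was made up of a difference of -38.0 CPM per kilobase for Nr4a1 and -5.18 for Nr4a2, while Nr4a3 added 1.49. In amount per kilobase, the gain of Nr4a3 was thus small beside the loss of Nr4a1.

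The share of Nr4a1 in the family was 54.3 ± 6.29% in ADCY3∆AT and 83.2 ± 4.08% in WT (SD, n = 3 each). Nr4a2 took 31.0 ± 7.74% in ADCY3∆AT and 16.5 ± 4.13% in WT, so its share was larger although its level was lower. Its shares of 22.1%, 36.1% and 34.8% in the ADCY3∆AT libraries all exceeded those of 21.2%, 14.98% and 13.3% in the WT libraries, but ADCY3∆AT replicate 1 and WT replicate 1 differed by less than the spread within either genotype. Nr4a3 took 16.4%, 14.2% and 13.4% in the ADCY3∆AT libraries, against 0.290%, 0.344% and 0.392% in the WT libraries. Without division by length the Nr4a3 share was 21.8% in ADCY3∆AT and 0.568% in WT.

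**Figure D2:**
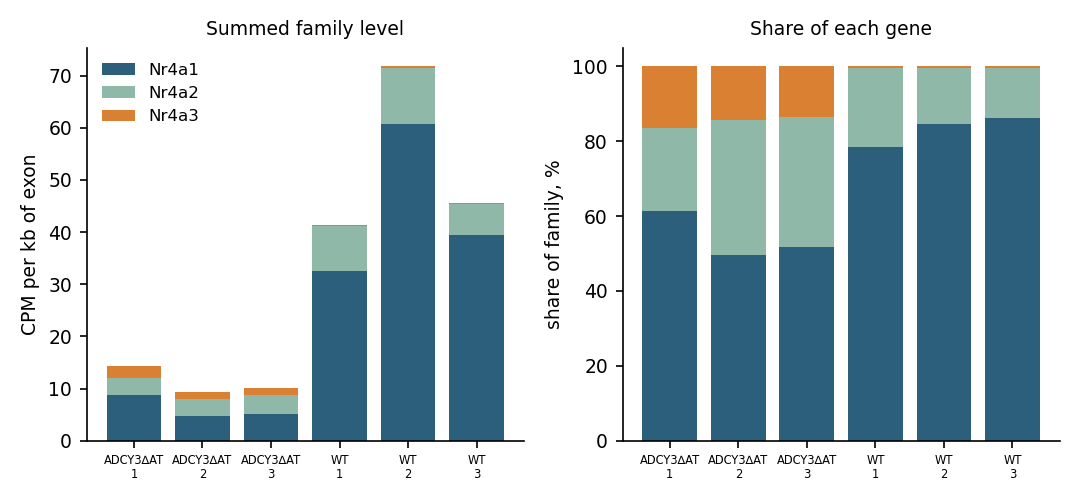
The left panel stacks the CPM per kilobase of exon of Nr4a1, Nr4a2 and Nr4a3 in each library, and the right panel gives each gene's share of that sum in percent, with the 3 ADCY3∆AT libraries left of the 3 WT libraries. The ADCY3∆AT sums (9.36 to 14.3) all lie below the WT sums (41.4 to 71.8), and Nr4a3 is visible as a share in ADCY3∆AT only (13.4% to 16.4%, against at most 0.392% in WT).

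Although they differed in opposite directions between genotypes, Nr4a1 and Nr4a3 placed the libraries in the same order within each genotype. ADCY3∆AT replicate 1 was highest in both, and among WT libraries replicate 2 was highest and replicate 1 lowest in both. ADCY3∆AT replicates 2 and 3 hardly differed in Nr4a3 (7.97 and 8.05 CPM). The ratio of Nr4a3 to Nr4a1, per kilobase, was 0.267, 0.286 and 0.259 in ADCY3∆AT, against 0.00369, 0.00406 and 0.00454 in WT. On the log2 scale the SD of this ratio was 0.07 in ADCY3∆AT and 0.15 in WT, while the SD of Nr4a1 was 0.49 in ADCY3∆AT and 0.46 in WT and that of Nr4a3 was 0.47 in ADCY3∆AT and 0.52 in WT (n = 3 each). The mean ratio was 66.2-fold higher in ADCY3∆AT.

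Nr4a2 did not share this order of libraries in either genotype. The SD of the log2 ratio of Nr4a2 to Nr4a1 was 0.56 in ADCY3∆AT and 0.42 in WT, and that of Nr4a3 to Nr4a2 was 0.54 in ADCY3∆AT and 0.56 in WT. In ADCY3∆AT, replicate 1 had the most Nr4a1 and Nr4a3 and the least Nr4a2. With 3 libraries per genotype and 11 to 20 counts of Nr4a3 in WT, whose Poisson intervals overlap, these orders and spreads were not tested. They are a description of the 6 libraries, and no joint regulation is read from them.

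**Figure D3:**
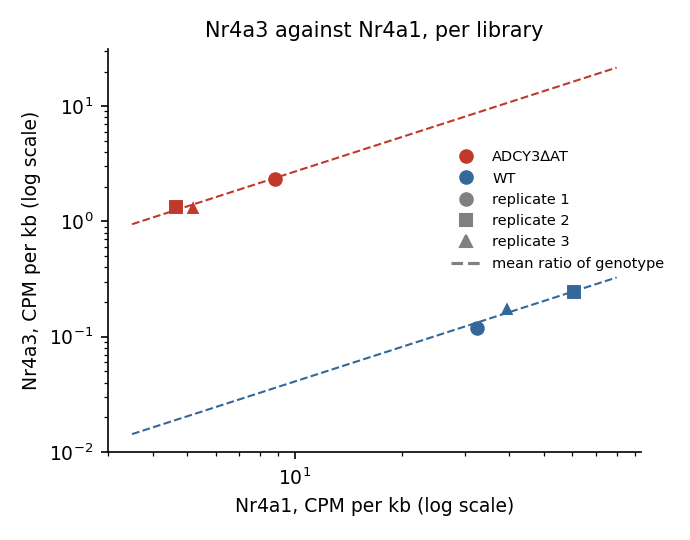
CPM per kilobase of Nr4a3 against Nr4a1 on log axes, with 1 symbol per library (red ADCY3∆AT, blue WT, shape for the replicate number) and a dashed line at the mean ratio of each genotype. Each genotype's libraries lie near its own line, with ratios of 0.259 to 0.286 in ADCY3∆AT and 0.00369 to 0.00454 in WT.

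Set among all 49 nuclear receptor genes of the table by CPM per kilobase, Nr4a1 ranked 15 in ADCY3∆AT and 3 in WT. Its rank by library was 15, 17 and 17 in ADCY3∆AT, against 4, 3 and 3 in WT. In WT it stood between Pparg, the main adipogenic receptor (63.9 ± 6.87), and Nr1h3, a sterol-sensing receptor (34.2 ± 1.14). It did not separate from Nr1h3 beyond its own spread, since WT replicate 1 held 32.5 CPM per kilobase of Nr4a1. Nr4a2 ranked 19 in ADCY3∆AT and 15 in WT, and Nr4a3 ranked 27 in ADCY3∆AT and 34 in WT. Esrra, which drives mitochondrial genes, ranked 1 by mean in both genotypes.

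Of the 46 other nuclear receptors, 32 were tested and edgeR called 0, against 4.30% of all genes. There were 8 at an unadjusted p under 0.05 (22.6% of all genes), and DESeq2 called 1 (6.93% of all) and limma-voom 0 (3.66% of all). Their log2 fold changes ran from -0.52 for Rorb to 0.93 for Ppara, with a median of 0.05 (-0.01 over all genes), and 0 of 32 differed by 2-fold or more. Without WT replicate 2, Ppara, which drives fatty acid oxidation genes and is named after its values were seen, was 2.76-fold higher and called (edgeR adjusted p = 0.0105), and without ADCY3∆AT replicate 3 it was 2.02-fold higher and not called. Among the 35 receptors tested, members included, Nr4a3 had the most positive value and Nr4a1 and Nr4a2 had the most negative ones. The members were chosen on this contrast, so this order is a description. The smallest p among the others belonged to Rxrb, a pairing partner of many receptors (83.3 ± 9.06 CPM in ADCY3∆AT and 66.6 ± 0.677 CPM in WT, log2 fold change 0.32, edgeR adjusted p = 0.0775), and to Nr2f6 (log2 fold change -0.20, edgeR adjusted p = 0.12). Without ADCY3∆AT replicate 2, WT replicate 2 or WT replicate 3, edgeR called 1 of these receptors, and with no filter on low counts it called 4.

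**Figure D4:**
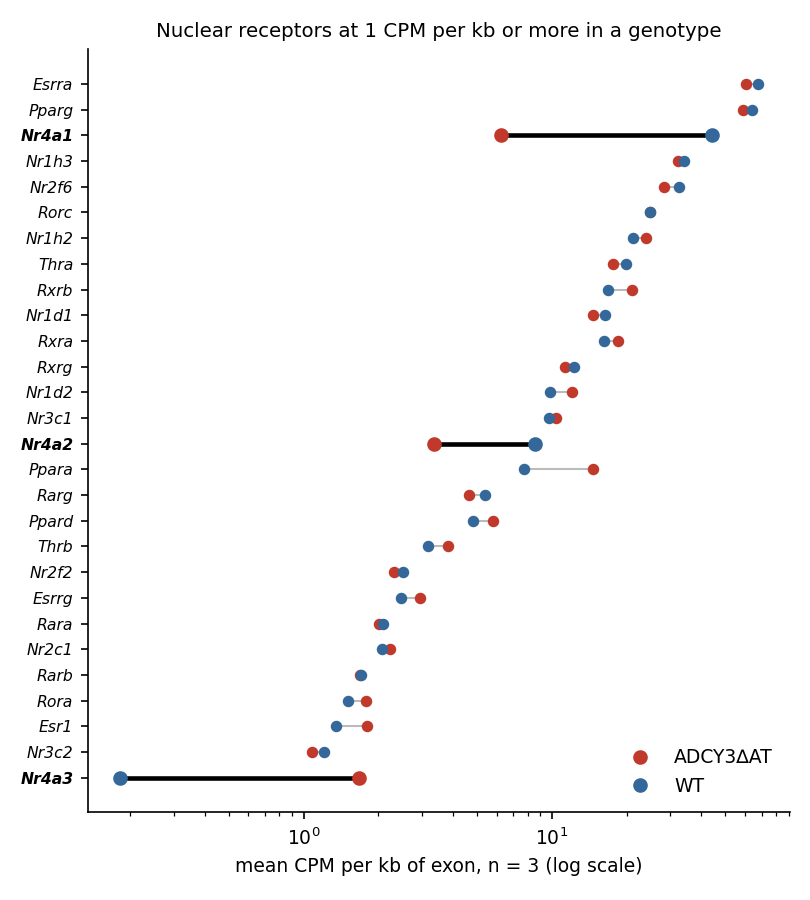
Mean CPM per kilobase of exon (log axis, n = 3 per genotype) of nuclear receptor genes that reach 1 in a genotype, ordered from top to bottom by the WT mean, with ADCY3∆AT in red, WT in blue and a line joining them. The 3 NR4A genes, in bold with black lines, show the longest lines, and none of the other 32 tested receptors differed by 2-fold or more with all 6 libraries.

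Among 30 factors known to induce or restrain Nr4a transcription (CREB and its coactivators, MEF2 factors and class IIa histone deacetylases, subunits of protein kinase A, salt-inducible kinases and MAP kinases), 2 rose, 0 fell and 28 were not called, with a median log2 fold change of 0.07. This is 6.67% of the list, against 4.30% of all genes. At an unadjusted p under 0.05 there were 12 (22.6% of all genes). DESeq2 called 3 (6.93% of all) and limma-voom 2 (3.66% of all). Log2 fold changes were positive for 20 and negative for 10. As this list was chosen with earlier results of these data known, no excess is read from these counts. Sik3, a salt-inducible kinase that holds CREB coactivators in the cytoplasm, held 59.9, 52.0 and 52.1 CPM in the ADCY3∆AT libraries, against 35.0, 39.5 and 35.3 CPM in the WT libraries (log2 fold change 0.58, SE 0.09, edgeR adjusted p = 0.0141). Crebbp, an acetyltransferase recruited by phosphorylated CREB, averaged 50.9 ± 2.83 CPM in ADCY3∆AT and 38.4 ± 3.40 CPM in WT (SD, n = 3 each; log2 fold change 0.41, SE 0.09, edgeR adjusted p = 0.0422). The Sik3 call ended without WT replicate 1, and that of Crebbp ended without any 1 library but ADCY3∆AT replicate 1, with the replicate block and with upper-quartile scaling.

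edgeR called 0 of 20 partners and coregulators of NR4A proteins. DESeq2 called 2, limma-voom called 0, and 4 had an unadjusted p under 0.05, against 4.30% (edgeR), 6.93% (DESeq2), 3.66% (limma-voom) and 22.6% (unadjusted) of all genes. Their median log2 fold change was 0.05. Ppargc1a, a coactivator that in muscle and brown fat is itself induced by cyclic AMP, averaged 38.4 CPM in ADCY3∆AT and 19.2 CPM in WT (log2 fold change 1.01, edgeR adjusted p = 0.0609). It was called without ADCY3∆AT replicate 1 (log2 fold change 1.23). The other with the smallest p was Rxrb, given above.

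Of 26 genes reported elsewhere, mostly in muscle, liver, endocrine or neural cells, to respond to NR4A proteins, 14 were tested, 0 rose and 2 fell, with a median log2 fold change of -0.28, against -0.01 over all genes. That is 14.3% of the tested members, against 1.67% of all genes called lower and 4.30% in either direction. An unadjusted p under 0.05 was seen for 8 (22.6% of all genes). DESeq2 called 4 (6.93% of all) and limma-voom 2 (3.66% of all). Log2 fold changes were positive for 3 and negative for 11. This list was chosen with earlier results of these data known, so no excess is read from these counts. Srebf1, which drives fatty acid synthesis genes and which NR4A1 was reported to suppress in mouse liver, held 248, 313 and 310.1 CPM in the ADCY3∆AT libraries, against 736, 596 and 702 CPM in the WT libraries (log2 fold change -1.22, SE 0.11, edgeR adjusted p = 0.00235). Ucp3, a mitochondrial carrier of muscle and brown fat, held 82.7, 89.9 and 64.5 CPM in the ADCY3∆AT libraries, against 135.3, 148 and 120.0 CPM in the WT libraries (log2 fold change -0.77, SE 0.13, edgeR adjusted p = 0.0196). It was no longer called without either WT replicate 1 or 2. The largest difference in each direction was not called, and its gene is named after its values were seen. Irf4 was 3.71-fold higher (68.8 ± 77.0 CPM in ADCY3∆AT and 18.7 ± 6.65 CPM in WT, edgeR adjusted p = 0.167). Pgam2 was 4.14-fold lower (edgeR adjusted p = 0.0913). The list holds further genes of muscle (Pgam2, Eno3, Pfkm, Fbp2), whose markers were lower in ADCY3∆AT. The part of muscle RNA in their values was not tested, and Ucp3 was lowest among WT libraries in WT replicate 3, which held most of it.

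Immediate early genes other than the receptors moved in both directions, as the receptors did. Of the 33 that passed the filter, 3 rose, 3 fell and 27 missed the threshold, 18.2% against 4.30% of all genes, with a median log2 fold change of 0.20. An unadjusted p under 0.05 was seen for 18 (22.6% of all genes). DESeq2 called 12 (6.93% of all) and limma-voom 6 (3.66% of all). This list was chosen with earlier results of these data known, so no excess is read from these counts. The falls were Fos, a subunit of AP-1 (2.09, 1.39 and 2.33 CPM in ADCY3∆AT, against 7.38, 9.90 and 11.2 CPM in WT, edgeR adjusted p = 0.00378), Dusp1, a phosphatase that switches off MAP kinases (log2 fold change -1.48, edgeR adjusted p = 0.00453), and Ier2 (-1.25, adjusted p = 0.00614). Dusp1 held 30.8 ± 7.13 CPM in ADCY3∆AT and 85.8 ± 8.78 CPM in WT (SD, n = 3 each). The rises were Pde4d, which degrades cyclic AMP (101 ± 28.5 CPM in ADCY3∆AT and 42.1 ± 8.78 CPM in WT, edgeR adjusted p = 0.0192), Nfil3, a repressor of clock output genes (48.7 ± 12.3 CPM in ADCY3∆AT and 22.6 ± 2.67 CPM in WT, adjusted p = 0.0174), and Rgs2, which shortens G protein signals (log2 fold change 0.78, adjusted p = 0.0346), named after its value was seen. Calls of Fos, Dusp1 and Ier2 were made in all 6 fits without 1 library. Those of Pde4d ended without WT replicate 1 or 3, of Nfil3 without WT replicate 1, WT replicate 2 or ADCY3∆AT replicate 3, and of Rgs2 without any but ADCY3∆AT replicate 2. Without WT replicate 1 the list had 3 calls and without ADCY3∆AT replicate 1 it had 10. The largest rise and the largest fall among genes not called had wide knockout spreads, and are named after their values were seen. Arc was 6.77-fold higher (10.2 ± 10.02 CPM in ADCY3∆AT and 1.53 ± 0.423 CPM in WT, edgeR adjusted p = 0.0732). Egr1 was 3.07-fold lower (28.8 ± 23.8 CPM in ADCY3∆AT and 89.1 ± 15.4 CPM in WT, edgeR adjusted p = 0.0983). Without ADCY3∆AT replicate 3, Egr1 was called.

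**Figure D5:**
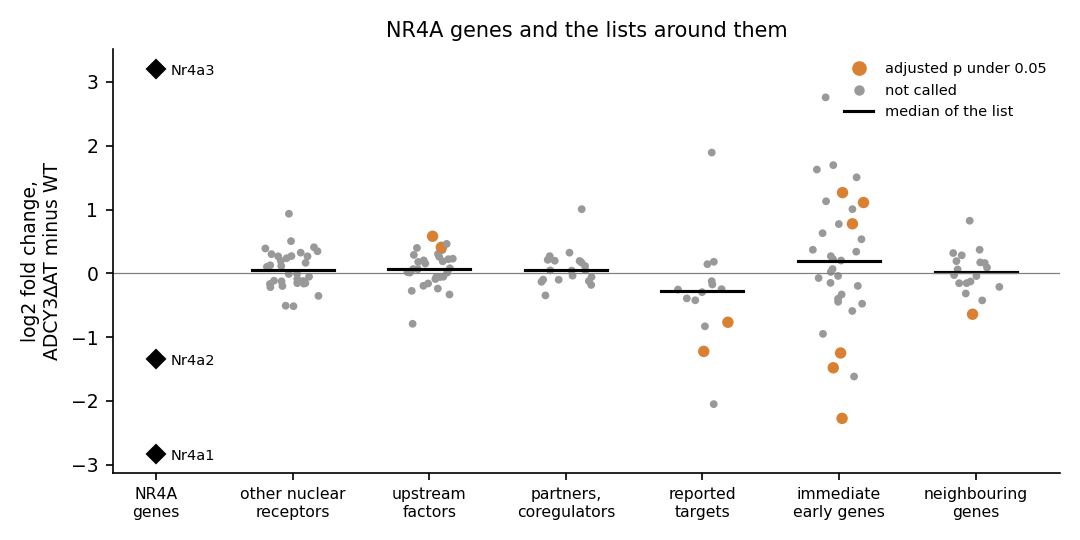
Log2 fold change, ADCY3∆AT minus WT, of the 3 NR4A genes (black diamonds, no test) and of each tested member of 6 lists, with called genes in orange, others in grey and a black bar at the list median. The NR4A genes span -2.83 to 3.21, the other nuclear receptors lie between -0.52 and 0.93, and the medians run from -0.28 (reported targets) to 0.20 (immediate early genes).

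Values of the nearest genes on the chromosome are a description. The receptors were chosen on this contrast, so their larger differences are not read as a result. The 3 nearest tested protein-coding genes on each side of each member were taken, 18 in all, at gaps of 9.48 to 3973 kb. The 3 at lower coordinates than Nr4a2 lay 3888 to 3973 kb away. Log2 fold changes of the 18 ran from -0.64 to 0.37 around Nr4a1, from -0.13 to 0.82 around Nr4a2 and from -0.21 to 0.28 around Nr4a3. The value of 0.82 was that of Fmnl2, at 3973 kb. An unadjusted p under 0.05 was seen for 6 of the 18 (22.6% of all genes). DESeq2 called 3 (6.93% of all) and limma-voom 1 (3.66% of all). In edgeR 1 of the 18 was called, and it fell, which is 5.56% against 4.30% of all genes. It was Krt79, a keratin gene that starts 655 kb from the end of Nr4a1 (7.91 ± 0.774 CPM in ADCY3∆AT and 12.4 ± 0.710 CPM in WT, SD, n = 3 each; edgeR adjusted p = 0.0257). Its call ended without any 1 library but ADCY3∆AT replicate 3 and with the replicate block. The closest neighbour, Atg101, which starts the autophagy cascade as part of its kinase complex, lies 9.48 kb from Nr4a1 and averaged 29.95 CPM in ADCY3∆AT and 26.7 CPM in WT (log2 fold change 0.17, edgeR adjusted p = 0.533).

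The genes whose pattern over the 6 libraries was most like that of each receptor were found by the root mean square difference of mean-centred log2(CPM + 0.5), among 11740 genes with a mean of at least 1 CPM. Since genotype dominates these patterns, the search mostly finds genes with a fold change of like size, and it carries no test. For Nr4a1 they were Cish, an inhibitor of cytokine receptor signals (difference 0.47), Fos (0.52), Dynlt1-ps1 (0.65, a pseudogene whose reads may be shared with its parent gene), Gdf5 (0.69) and Pik3r1 (0.75), a regulatory subunit of phosphoinositide kinase. Cish held 20.4, 5.45 and 8.91 CPM in the ADCY3∆AT libraries, against 87.5, 136 and 137 CPM in the WT libraries, with ADCY3∆AT replicate 1 highest among the knockouts as for Nr4a1.

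For Nr4a2 the matches were closer. They were Tfrc, the transferrin receptor that takes up iron (0.08), Adrb1, a beta-adrenergic receptor (0.15), Eppk1 (0.20), Entpd4 (0.22) and Spaca6 (0.22). Tfrc held 11.2, 13.2 and 12.4 CPM in the ADCY3∆AT libraries, against 34.3, 37.5 and 24.4 CPM in the WT libraries, and so shared with Nr4a2 both the narrow knockout range and the WT order. Nr4a1 itself lay 0.86 from Nr4a2. Any gene outside the 5 nearest lies farther by construction, so nothing is read from this distance.

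For Nr4a3 they were Pik3ip1, which restrains phosphoinositide kinase (0.40), Trp53inp1 (0.47), Depp1 (0.47), Btc, a growth factor of the epidermal growth factor family (0.49), and Mfsd2a, a lipid transporter (0.52). All 5 had smaller log2 fold changes than Nr4a3, from 1.98 for Depp1 to 2.46 for Mfsd2a, against 3.21 for Nr4a3. The search adds 0.5 to CPM, which shrinks the difference of Nr4a3, at 0.718 to 1.48 CPM in WT, more than theirs. It therefore favours genes of higher level and smaller fold change. Depp1 held 105 CPM in ADCY3∆AT replicate 1 and 43.8 and 43.1 CPM in replicates 2 and 3, against 12.5, 18.2 and 18.0 CPM in the WT libraries, with the same highest library in the knockout as Nr4a3.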

How the data were processed

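Per the labels' protocols, RNA came from TRIzol and spin columns and was enriched for poly(A), and NEBNext Ultra II libraries were sequenced from both ends. The values the authors deposited are estimated counts, in 1 table (54385 gene rows, 6 library columns, no normalization). Its values have up to 3 decimals. The submitters' processing notes name GRCm38, StringTie, Salmon and edgeR, without versions or roles. Use of strand in counting was not given in the sources used here. A number in each sample's description tied it to its column. GENCODE M21 gave a symbol for 54131 rows, and the other 254 stayed in the fit.

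Estimated counts were rounded to whole numbers, filtered with filterByExpr (minimum count 10, minimum total 15), scaled by TMM and tested with edgeR 4.0.16 (R 4.3.3), by its quasi-likelihood test, on all 6 libraries with no covariate. Calls are at a Benjamini-Hochberg adjusted p under 0.05 over all 14332 tested genes. Alternatives used DESeq2 1.42.0 and limma 3.58.1, other scalings and filters, a threshold of 0.1, a replicate block and the removal of each library. SE comes from the F statistic. The fit was tested on simulated data.

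The members and lists were chosen with earlier results of these data known. The named genes are the members, up to 5 called genes with the smallest p from each list (2 where none was called), called neighbours, and the 5 most similar patterns per member. Chi-square per gene between replicates of 1 genotype was 6.19 to 26.9, above counting noise. The labels do not state separate mice, so p-values measure the spread between these libraries, which may be technical. Other differences that went with genotype cannot be told apart from it.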

Additional observations from a re-analysis of the deposited data

How the results depend on the processing

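The log2 fold changes of the members kept their sign in all 14 other fits. They ran from -2.86 to -2.80 for Nr4a1, -1.38 to -1.29 for Nr4a2 and 3.16 to 3.24 for Nr4a3 over 8 other scalings, filters and tests, and from -3.15 to -2.53, -1.54 to -1.14 and 2.89 to 3.47 over 6 fits without 1 library. The libraries of the genotypes do not overlap for these genes, so the kept signs are no sign of stability.

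The count of called genes (616) was 993 with DESeq2 (598 higher, 395 lower), 1951 with no filter on low counts (1204 higher, 747 lower) and 1375 at a threshold of 0.1 (810 higher, 565 lower); apart from the threshold, the cause was not tested. In fits without 1 library, which have fewer samples, it ran from 162 to 461 (84 to 301 higher, 78 to 160 lower), lowest without WT replicate 1.

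The replicate numbers did not pair the libraries: deviations of same-numbered libraries correlated at 0.00134, -0.00679 and -0.0486 across genes, and no knockout library correlated best with its own number. With the replicate block 324 genes were called (193 higher, 131 lower).

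Without division by length, Nr4a1 took 47.1% of the family in ADCY3∆AT, and Nr4a3 took 21.8% in ADCY3∆AT and 0.568% in WT. With the longest transcript as length, Nr4a3 took 12.3% in ADCY3∆AT and 0.268% in WT. Adding 1 count to each gene moved each share by less than its SD.

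Of 182 refits of 13 named genes outside the family, 155 kept their side of the threshold, 21 lost the call, 6 gained it and 0 changed sign. Depth limits Nr4a3 in WT, at 11 to 20 counts per library.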
